A study of Mus musculus with 2 samples.

Results

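Genes of sphingosine phosphate and lysophosphatidate signalling were compared between 2 Affymetrix arrays of bEnd3 cells, 1 labelled Smad4-siRNA and 1 labelled Control-siRNA (below, the Smad4-siRNA-labelled array and the control array). The group was chosen by name, as every probe set annotated to a single gene when that gene was S1pr1, S1pr2, S1pr3, Lpar1, Lpar4, Sphk1, Sphk2, Sgpl1, Enpp2 or Plpp3. This gave 20 probe sets for 9 of the 10 genes, out of 18193 genes in all. No probe set of the table used here carried Enpp2 as its only gene, so Enpp2 was not analysed here. The bEnd3 line is a mouse endothelial line from brain microvessels (cerebral cortex, strain BALB/c) transformed with polyoma middle T antigen. Cells of both groups were grown in the same medium, infected with retrovirus from PLAT-E packaging cells and selected with puromycin. One group had received a Smad4-siRNA and the other a control siRNA, and RNA from 2 infections was pooled for each array. The time between infection and harvest is not given in the sources used here. Smad4 joins the receptor-activated Smads of the TGF-β and BMP pathways in the nucleus, and the design asks how brain endothelial transcripts differ when it is targeted.

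Sphingosine-1-phosphate (S1P) and lysophosphatidate (LPA) are lysolipids that act outside the cell through G-protein-coupled receptors. S1P is made by the sphingosine kinases Sphk1 and Sphk2, is exported from endothelial cells by the transporter Spns2, and is cleaved irreversibly by the lyase Sgpl1. The enzyme autotaxin (Enpp2) makes LPA outside the cell, and lipid phosphate phosphatases such as Plpp3 remove the phosphate from both lipids. In endothelium, S1pr1 signals through Gi to Rac and supports the barrier between cells, whereas S1pr2 couples to G12/13.

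With 1 array per group there are no replicates, no difference below has a replicate check, and no test between groups was made. The values are quantile-normalized MAS5 signals in arbitrary units, and log2 ratios are the Smad4-siRNA-labelled array minus the control array. Each array's median signal, 22.8 on both, served as a floor. A signal below it gives only a bound, written as "at least N-fold". As a technical error, probe sets that report on the same gene scattered with an SD of 0.47 in their log2 ratios (pooled over 4546 genes), which holds nothing of the spread between arrays or cultures. A gene was called higher or lower at a fold or bound of at least 2.

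The Smad4-siRNA-labelled array went against its label in a way that bears on every direction below. Smad4 had 3 probe sets, with log2 ratios of 0.35, 0.58 and 0.25 (as deposited, -0.07, 0.21 and -0.12), so the targeted mRNA was not lower on the Smad4-siRNA-labelled array. Of 21 endothelial markers, 20 were at least 2-fold lower there, and their summed signal was 1176 against 29649 on the control array. On the Smad4-siRNA-labelled array, 11 of the 21 were below the floor, among them Pecam1, Cldn5, Esam, Tie1, Erg and Sox17. Of the 10 that reached it there, Kdr (26.0) and Nos3 (27.9) were close to it, and Eng (508) and Egfl7 (247) were the brightest. As a set, these markers bore out the labelled endothelial cell type on the control array but not on the other. Of 9 fibroblast markers that reached the floor on an array, 8 were at least 2-fold higher on the Smad4-siRNA-labelled array, with a summed signal of 26391 against 994 for the whole list of 11. Col1a1, Col1a2, Col3a1, Dcn, Fbln1, Postn and Mgp were below the floor on the control array. Of the 10 pericyte and smooth muscle markers, 5 were measured and 4 of these were higher, while Des reached the floor only on the control array. Rgs5, Myh11, Cnn1, Kcnj8 and Abcc9 were below the floor on both arrays. Of the astrocyte, microglia and leukocyte, neuron and oligodendrocyte, and epithelial markers 2, 2, 0 and 1 were measured. Among these, Cd68 was 23.3-fold lower on the Smad4-siRNA-labelled array, Slc1a3 at least 2.71-fold and Epcam at least 3.58-fold higher, and Gja1 and Csf1r lay within 2-fold. Sex-linked genes were looked at after their values were seen. Xist, which is transcribed from the inactive X chromosome of female cells, gave 4495 on the Smad4-siRNA-labelled array and 20.7, under the floor, on the other. The Y-linked Eif2s3y (0.349 and 324), Kdm5d (4.69 and 122) and Uty (4.03 and 112) were under the floor on the Smad4-siRNA-labelled array and above it on the control array. So the arrays carried sex-linked transcripts of female and of male cells respectively, although the labels give both as bEnd3, and whether samples or labels were exchanged was not tested. Higher and lower therefore describe these arrays, and whether any difference is a response to loss of Smad4 was not tested. With 1 array per group, such a response cannot be told apart from a difference in the cells themselves, such as that in sex-linked transcripts. The part that the marker differences have in the results below was not tested. In bulk RNA, fewer cells of a type also cannot be told apart from less RNA per cell.

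The S1P and LPA genes differed in opposite directions. S1pr2, S1pr3, Lpar1 and Sphk1 were called higher on the Smad4-siRNA-labelled array, S1pr1 and Sphk2 were called lower, and Lpar4, Sgpl1 and Plpp3 lay within 2-fold. Thus 6 of the 9 genes were at least 2-fold apart, 4 higher and 2 lower, beside 31.8% of all 11581 genes with a signal at or above the floor (16% higher and 15.8% lower). The members were chosen with earlier results of these data known, so the counts only describe this group. The median log2 ratio was 0.85 over the members and -0.11 over all genes, the latter -0.23 as deposited. All 9 genes reached the floor on the Smad4-siRNA-labelled array, and S1pr2 and S1pr3 did not in their brightest probe set on the control array. Of the 20 probe sets, 8 were called higher, 3 lower and 8 lay between, and 1 was below the floor on both arrays. In each of the 8 genes with more than 1 probe set, all of its probe sets had log2 ratios of the same sign.

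**Figure D1:**
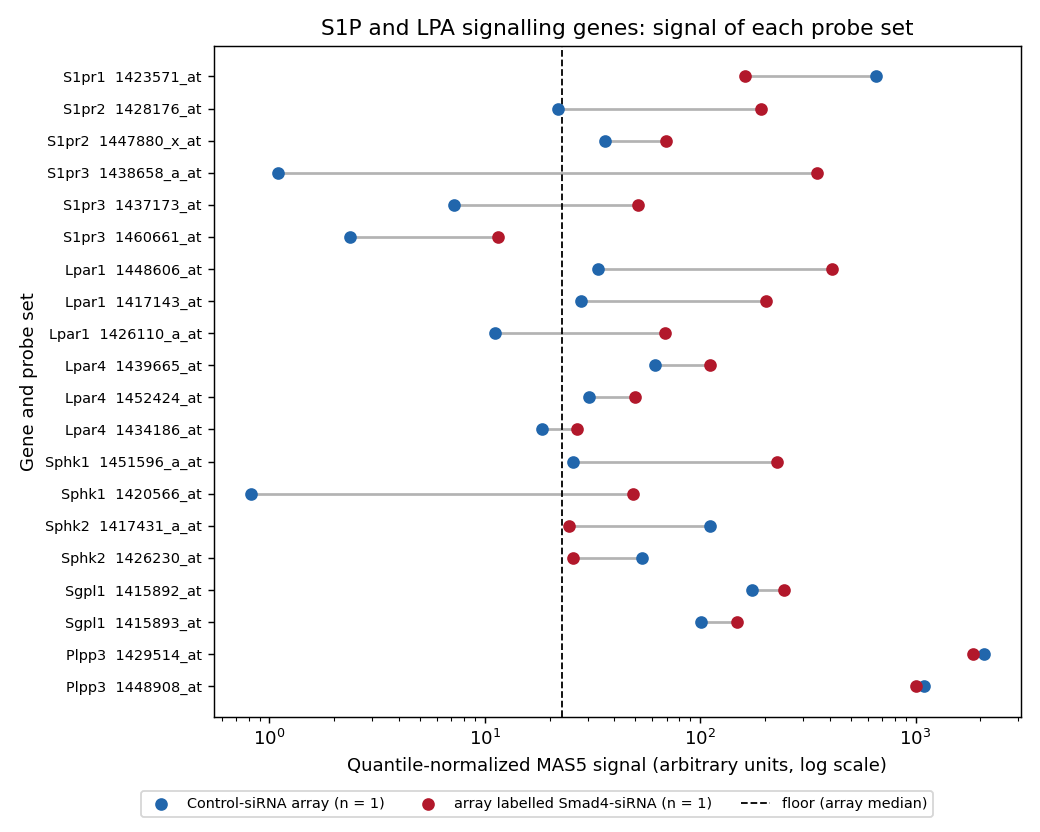
Quantile-normalized MAS5 signal (arbitrary units, log axis) of the 20 probe sets of 9 genes on the control array (blue) and the Smad4-siRNA-labelled array (red), 1 array each, with the floor of 22.8 as a dashed line. Red points lie to the right of blue ones for every probe set of S1pr2, S1pr3, Lpar1, Lpar4, Sphk1 and Sgpl1, and to the left for S1pr1, Sphk2 and Plpp3.

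Promoters are shown for the 5 called genes that had one in the sources used here, S1pr1 having none. Each run is 300 bases, from 250 before to 50 after a start, from RefSeq (GRCm38.p6), read 5′ to 3′ on the gene's strand. Where the table held several starts (3 for Lpar1, 5 for Sphk1, 2 for Sphk2), the one farthest upstream is given. Capitals mark CAGAC or its reverse complement GTCTG, the short sequence that Smad proteins can bind. The windows are chr9:20976744-20977043 (minus strand) for S1pr2, chr13:51408368-51408667 (plus strand) for S1pr3, chr4:58553442-58553741 (minus strand) for Lpar1, chr11:116530850-116531149 (plus strand) for Sphk1 and chr7:45717953-45718252 (minus strand) for Sphk2.
S1pr2: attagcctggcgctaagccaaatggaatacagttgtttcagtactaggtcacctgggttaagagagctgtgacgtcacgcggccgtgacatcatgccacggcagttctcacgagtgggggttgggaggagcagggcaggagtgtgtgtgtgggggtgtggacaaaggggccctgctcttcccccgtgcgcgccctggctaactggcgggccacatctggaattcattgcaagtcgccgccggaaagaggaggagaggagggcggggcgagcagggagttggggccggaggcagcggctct
S1pr3: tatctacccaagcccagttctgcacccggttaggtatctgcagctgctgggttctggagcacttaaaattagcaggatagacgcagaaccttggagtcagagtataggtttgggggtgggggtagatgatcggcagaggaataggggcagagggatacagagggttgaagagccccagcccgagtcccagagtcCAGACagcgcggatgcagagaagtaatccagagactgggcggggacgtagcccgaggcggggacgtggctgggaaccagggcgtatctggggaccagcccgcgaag
Lpar1: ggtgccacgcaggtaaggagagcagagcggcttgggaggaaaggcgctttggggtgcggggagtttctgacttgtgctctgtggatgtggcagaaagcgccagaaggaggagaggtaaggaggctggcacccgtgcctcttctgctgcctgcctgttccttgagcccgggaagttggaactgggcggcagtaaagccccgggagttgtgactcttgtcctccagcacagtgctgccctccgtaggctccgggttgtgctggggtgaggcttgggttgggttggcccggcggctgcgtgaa
Sphk1: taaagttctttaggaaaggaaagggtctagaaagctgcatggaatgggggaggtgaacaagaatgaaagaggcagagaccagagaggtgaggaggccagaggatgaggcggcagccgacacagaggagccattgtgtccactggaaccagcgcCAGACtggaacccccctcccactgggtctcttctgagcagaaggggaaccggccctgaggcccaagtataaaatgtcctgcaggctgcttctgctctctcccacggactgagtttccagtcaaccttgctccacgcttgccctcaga
Sphk2: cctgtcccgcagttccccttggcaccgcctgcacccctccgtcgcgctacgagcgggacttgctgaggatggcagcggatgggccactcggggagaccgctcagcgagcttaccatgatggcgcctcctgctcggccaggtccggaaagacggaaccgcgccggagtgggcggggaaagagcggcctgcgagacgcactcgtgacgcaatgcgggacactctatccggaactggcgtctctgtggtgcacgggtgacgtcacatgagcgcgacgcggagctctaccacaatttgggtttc

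Promoters in the table matched 8 of the 9 genes, S1pr1 being the other. CAGAC or GTCTG stood in 3 of these 8 first windows (S1pr3, Lpar4 and Sphk1, 1 match each), beside 49.6% of all 32851 promoter windows. The window of the Lpar1 start farthest downstream, not shown, held 3 matches, and that of the other Sphk2 start held 1. The palindrome GGCGCC, a sequence that BMP-activated Smads can bind, stood in 2 of the 8 (Sphk2 and Sgpl1) and in 11.9% of all. TGANTCA, the AP-1 sequence, was in 0 of the 8 first windows and in 7.81% of all, while 2 of the other Sphk1 windows, which overlap, held it. GGGCGG or CCGCCC, the Sp1 sequence, was in 7 of the 8 (not in that of Sphk1) and in 35.7% of all. GGGCGG can overlap GGCGCC by a few bases. GC content ran from 46.0% (Plpp3) to 75.3% (Sgpl1) in these windows, with a median of 52.7% over all. Matches describe letters only, and no binding was measured.

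Among the S1P receptors, S1pr1 and the pair S1pr2 and S1pr3 stood on opposite sides. S1pr1 is the main S1P receptor of endothelial cells. Its only probe set, 1423571_at, had a signal of 162 on the Smad4-siRNA-labelled array and of 654 on the control array. It was above the floor on both and 4.04-fold lower on the former, a log2 ratio of -2.01 (-2.30 as deposited). Of 9479 genes measured on both arrays, 266 had a lower ratio. With a single probe set, its value has no check by a second one.

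S1pr2 couples to G12/13 and in many cells opposes migration. By its brighter probe set, 1428176_at, it had signals of 191 and 21.8, the latter just under the floor, and was at least 8.38-fold higher on the Smad4-siRNA-labelled array. Its other probe set, 1447880_x_at, had 69.3 and 36.0, a log2 ratio of 0.94. Both probe sets were brighter on the Smad4-siRNA-labelled array, but only the first reached 2-fold, and the suffix _x_at marks probes that may share sequence with other transcripts.

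S1pr3, which couples to several G proteins, was low on the control array in all 3 probe sets. The brightest, 1438658_a_at, had signals of 347 and 1.10 and was at least 15.2-fold higher on the Smad4-siRNA-labelled array. The next, 1437173_at, had 51.2 and 7.23 and was at least 2.25-fold higher. The last, 1460661_at, had 11.5 and 2.37, below the floor on both arrays, and is given no fold. The bounds of the first pair differ because their bright signals differ, and with the values as deposited 1437173_at became the brighter on average and the bound was 1.37 on the log2 scale. Within the arrays, S1pr3 and S1pr2 differed from S1pr1 by at least 5.94 and 5.08 on the log2 scale (over all probe sets with a ratio or bound, at least 3.18 and 2.96). A constant scaling of an array does not move such a comparison where both signals are above the floor. That was not so for 5.94, 5.08 and 3.18, which use bounds and rest on the floor and on the probe set chosen. The 2.96 uses the S1pr2 probe set 1447880_x_at, which was above the floor on both arrays.

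Other receptors for these lipids were mostly not measured. Of 9 further S1P, LPA and related receptor genes, 8 had a probe set of their own and 6 of these were below the floor on both arrays, S1pr5, Lpar2, Lpar3, P2ry10, Gpr34 and Gpr174. Lpar6, an LPA receptor of the P2Y family, had signals of 324 and 351, and S1pr4, known from lymphocytes, had 30.8 and 35.4. Their log2 ratios were -0.12 and -0.20 (-0.44 and 0.03 as deposited), within the spread between probe sets, and the sign for S1pr4 depended on the scaling.

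The LPA receptors of the group were both brighter on the Smad4-siRNA-labelled array, to different degrees. Lpar1, the widely expressed LPA receptor of mesenchymal and neural cells, had signals of 408 and 33.7 in probe set 1448606_at, a 12.1-fold difference. Its probe set 1417143_at had 202 and 28.0, a 7.19-fold difference, and 1426110_a_at had 68.5 and 11.2, at least 3.005-fold. All 3 were thus called higher, and 76 of the 9479 genes measured on both arrays had a higher ratio than its brightest. Lpar1 was the highest of the members measured on both arrays.

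Lpar4, an X-linked LPA receptor of the P2Y family, lay within 2-fold. Its probe set 1439665_at had signals of 111 and 61.8, a log2 ratio of 0.85. For 1452424_at the signals were 49.7 and 30.5, a log2 ratio of 0.70. The dimmest, 1434186_at, had 26.8 and 18.3, above the floor only on the Smad4-siRNA-labelled array. The first pair were brighter on that array by less than 2-fold, the dimmest by a bound of at least 1.17-fold, and with log2 ratios centred on their median the first reached 1.01. Lpar1 and Lpar4 differed by 2.75 on the log2 scale in their brightest probe sets, which were above the floor on both arrays.

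**Figure D2:**
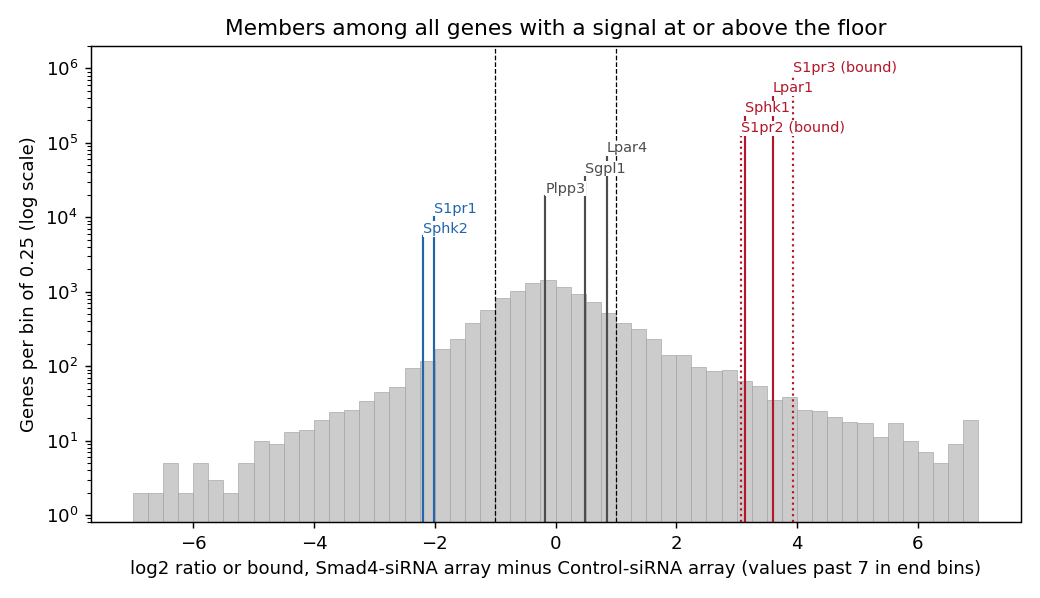
Distribution of the log2 ratio or bound over 11581 genes (grey bars, log axis), with the 9 members as vertical lines, dotted for bounds; dashed lines mark 2-fold. S1pr1 and Sphk2 lie near -2, Plpp3, Sgpl1 and Lpar4 between the dashed lines, and S1pr2, Sphk1, Lpar1 and S1pr3 at 3 or above.

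The sphingosine kinases were opposed in direction. Sphk1, the mainly cytoplasmic kinase whose S1P is released to the outside, had signals of 227 and 25.7 in probe set 1451596_a_at, 8.82-fold higher on the Smad4-siRNA-labelled array, where 114 of 9479 genes had a higher ratio. Its probe set 1420566_at had 48.6 and 0.821, at least 2.13-fold higher. Both called Sphk1 higher, although its signal on the control array was close to the floor or below it.

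Sphk2, the kinase found in part in the nucleus and mitochondria, showed the reverse. Probe set 1417431_a_at had 24.5 on the Smad4-siRNA-labelled array and 112 on the control array, 4.56-fold lower, and 195 of 9479 genes had a lower ratio. Probe set 1426230_at had 25.6 and 54.0, 2.11-fold lower (log2 ratio -1.08, and -0.88 as deposited). Its signals on the Smad4-siRNA-labelled array were just above the floor. The log2 ratios of Sphk1 and Sphk2 differed by 5.33, and by at least 2.17 over the 4 pairs of their probe sets. The 2.17 uses the bound of Sphk1 probe set 1420566_at, so it rests on the floor.

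Sgpl1 and Plpp3, the members that remove these lipids, lay within 2-fold. Sgpl1, the S1P lyase, had signals of 244 and 174 in probe set 1415892_at and of 148 and 100.3 in 1415893_at. The log2 ratios were 0.49 and 0.56 (as deposited, 0.26 and 0.47), both above 0 and close to the spread between probe sets of a gene. Plpp3, the lipid phosphate phosphatase of endothelium and other cells, had 1848 and 2076 in 1429514_at and 1005 and 1099 in 1448908_at. Its log2 ratios of -0.17 and -0.13 (-0.49 and -0.53 as deposited) were on either scaling near or below that spread in size, and 4633 of 9479 genes had a lower ratio.

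The wider pathway was described by 6 lists of other receptors, phosphatases, carriers, sphingolipid enzymes, LPA enzymes and G proteins with their effectors. Of their 96 genes, 90 had a probe set of their own and 69 a signal at or above the floor on an array. Of these, 13 were called higher, 12 lower and 44 lay between, beside 16% higher and 15.8% lower over all genes, against which the counts of each list below are also to be read. The median log2 ratio was -0.11, equal to that of all genes to 2 decimals. As deposited the split was 10 higher and 17 lower (1764 and 2298 over all genes), after centring on the median 11 and 16 (1980 and 1924), and after removal of a lowess trend 14 and 12 (2047 and 1544). The sign was the same under all 4 scalings for 62 of the 69, and for all 22 genes that the rule for naming picked from these lists.

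**Figure D3:**
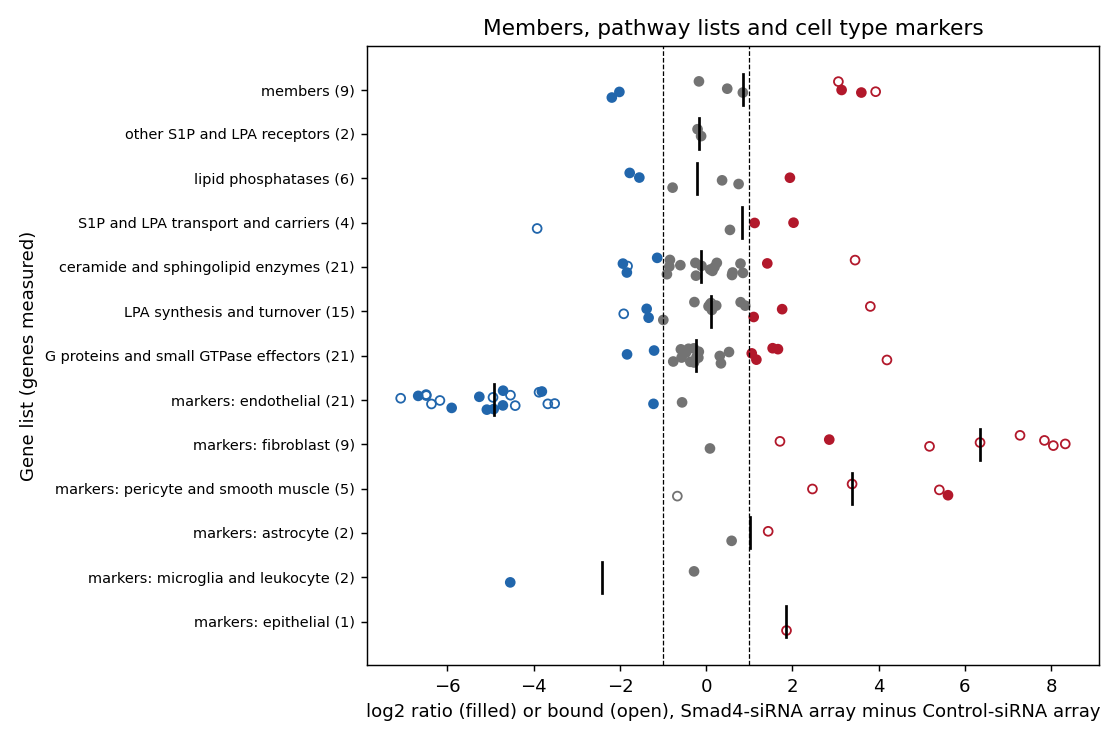
Log2 ratio (filled) or bound (open) of each measured gene in the members, the 6 pathway lists and the cell type marker lists, with list medians as black bars and dashed lines at 2-fold; red is at least 2-fold higher on the Smad4-siRNA-labelled array and blue at least 2-fold lower. Pathway lists straddle 0, with 13 genes to the right and 12 to the left of the dashed lines, while 20 of 21 endothelial markers lie to the left and 8 of 9 fibroblast markers to the right.

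Among carriers, 2 of 4 measured genes were higher and 1 lower (1 and 1 as deposited). Spns2, the S1P exporter of endothelial cells, had a signal of 345 on the control array and of 6.41 on the other, at least 15.1-fold lower. Like S1pr1, Spns2 has a single probe set (1451601_a_at), so its value has no check by a second one. Whether its difference is linked to that in the endothelial markers was not tested. The lipid transporters Abca1 (1537 and 377, 4.07-fold) and Abcg2 (560 and 257, 2.18-fold) were higher on the Smad4-siRNA-labelled array, Abcg2 with a log2 ratio of 0.81 as deposited. Abcc1, which can also export S1P, had 1176 and 802, a log2 ratio of 0.55.

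The lipid phosphatases related to Plpp3 were not all within 2-fold. Plpp1 had 443 and 1296, 2.93-fold lower on the Smad4-siRNA-labelled array, and Plpp2 had 453 and 1549, 3.42-fold lower. Of the other Plpp1 probe sets, 1422620_s_at was 2.80-fold lower and 1425449_at was below the floor on both arrays. The other Plpp2 probe set, 1420910_at, had 11.4 and 23.4, a bound of only 1.03-fold. Sgpp1, which returns S1P to sphingosine, had 254 and 66.1, 3.84-fold higher, and its other probe sets went the same way. The other 3 measured of the 6 lay within 2-fold.

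Ceramide and sphingolipid enzymes were mostly within 2-fold, 15 of 21, with 2 higher and 4 lower, but with 2 higher, 7 lower and 12 between as deposited. Cers6, a ceramide synthase, had 249.6 and 6.25, at least 11.0-fold higher on the Smad4-siRNA-labelled array, and the sphingomyelinase Smpd2 was 2.67-fold higher. The sphingomyelin synthase Sgms2 (3.81-fold), the neutral ceramidase Asah2 (3.58-fold) and the ceramidase Acer2 (at least 3.54-fold) were lower, as was the desaturase Degs1. Both ceramidases release the sphingosine that the kinases use. Asah1, the lysosomal ceramidase, had a log2 ratio of 0.25 (-0.11 as deposited).

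Enzymes of LPA and phosphatidate metabolism had 3 higher, 3 lower and 9 between of 15, and 2 higher and 4 lower as deposited. Pla1a, a phospholipase that makes lysophosphatidylserine, had 319 and 8.13, at least 14.0-fold higher on the Smad4-siRNA-labelled array. Agpat4, an acyltransferase that uses LPA, was 3.39-fold and the lysophospholipid acyltransferase Lpcat3 2.15-fold higher, with a log2 ratio of 0.77 for Lpcat3 as deposited. Gdpd3, a lysophospholipase D that can make LPA inside the cell, had 10.8 and 85.7, at least 3.76-fold lower. The LPA acyltransferases Agpat3 and Agpat1 were 2.60-fold and 2.52-fold lower.

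G proteins and effectors were within 2-fold in 14 of 21 cases, with 5 higher and 2 lower (4 and 3 as deposited). Tiam1, an activator of Rac, had 417 and 2.55 in probe set 1418057_at, at least 18.3-fold higher on the Smad4-siRNA-labelled array. Its probe set 1444373_at gave a bound of only 1.42-fold in the same direction, and 1453887_a_at was below the floor on both arrays. Gnai1 was 3.17-fold and Gna13 2.91-fold higher, while Gna12, of the same G-protein subfamily as Gna13, was 2.31-fold and the β-arrestin gene Arrb1 3.57-fold lower. All 7 Gna13 probe sets had log2 ratios above 0, from 0.34 to 1.75. The small GTPase genes Rac1 and Cdc42 had log2 ratios of -0.18 and 0.31, and the sign of both depended on the scaling.

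The calls rest on where the floor was set. With the floor at each array's 75th percentile in place of its median, the bounds of S1pr2 and Sphk1 fell under 2-fold (log2 0.59 and 0.83), Sphk2 and Lpar4 were below it on both arrays, and 2 genes were left as higher (S1pr3 and Lpar1) and 1 as lower (S1pr1). All member values kept their sign under all 8 alternative settings that gave a value. A bound takes its sign from the array that reached the floor, so for bounds, as in S1pr2 and S1pr3, a kept sign is little check.

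**Figure D4:**
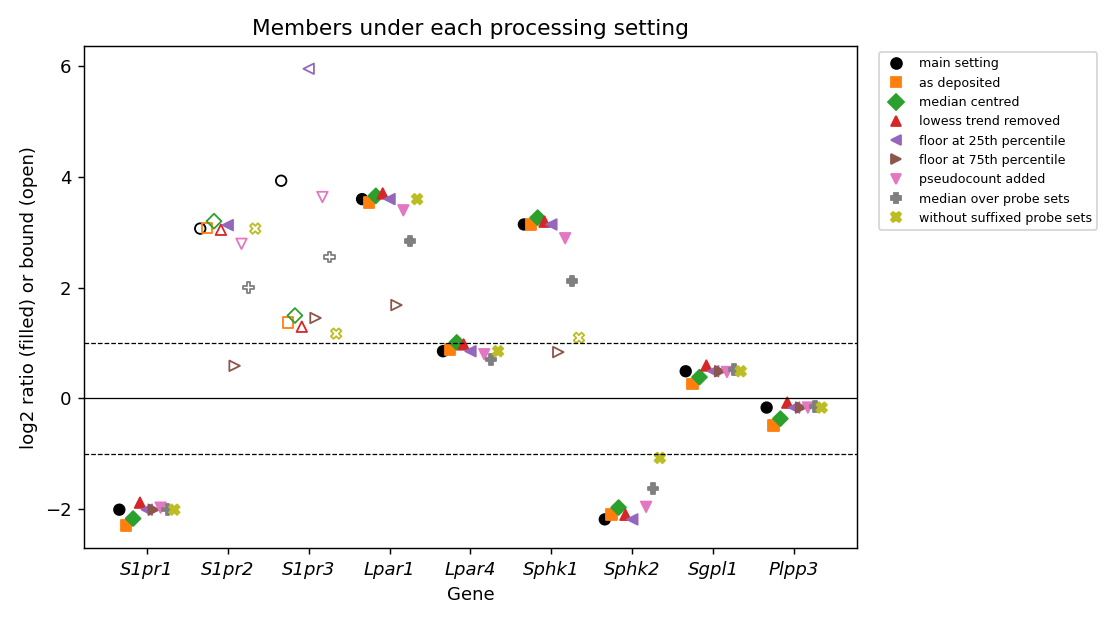
Log2 ratio (filled) or bound (open) of each member under the main setting and 8 alternatives, with dashed lines at 2-fold. No point crosses 0, although a bound takes its sign from the array that reached the floor. S1pr1 stays between -2.30 and -1.89, and S1pr3 ranges from 1.17 to 5.95.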

How the data were processed

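Total RNA of bEnd3 cells was hybridised to Affymetrix mouse arrays, 1 per group, with groups taken from the sample titles. Per the submitters' processing notes the authors used MAS5, and the deposited column of each array holds its linear signal intensity per probe set. No version of MAS5, scaling target or detection call is stated in the sources used here. The 2% trimmed means differed by -17.2% (115 and 138), at least the 5% set as limit, so log2 signals were quantile normalized (Python 3.11.15, numpy 2.4.6, pandas 2.3.3). Of 45101 probe sets, 64 controls were left out of gene comparisons. Names came from the platform annotation, updated by Entrez identifier through RefSeq (18032 of 18193 genes matched); 34945 probe sets had 1 gene and 932 several. The probe set of highest mean log2 signal stood for a gene. In place of detection calls, a floor was set at the median. The steps were tested on data simulated from the control array, with effects planted only in genes well above the floor. That test says little about bounds or about genes near the floor, such as S1pr2, S1pr3, Sphk1 and Sphk2. Members and lists were chosen with earlier results of these data known. Named genes were all members, up to 3 called genes per pathway list and direction farthest from 0, Smad4, and the 2 genes nearest in both log2 signals to each called member (given where both arrays measured it). Marker lists were also fixed by name. Genes outside this rule (Xist, Eif2s3y, Kdm5d, Uty, Lpar6, S1pr4, Abcc1, Degs1, Asah1, Rac1, Cdc42, and marker, unmeasured and chromosomal neighbour genes) were named after their values were seen. Alternatives changed the scaling, floor, pseudocount and choice of probe set.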

Additional observations from a re-analysis of the deposited data

How the results depend on the processing

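No paired analysis was possible because each group has 1 array. In 126 values under the 8 alternatives, 105 stayed within the spread between probe sets (SD 0.47 for log2 ratios) or within 1.5 times the count, 21 moved and 0 reversed. Of 70 member values, 70 kept their sign and 67 their call, but the sign of a bound is set by the array that reached the floor. The exceptions were S1pr2 and Sphk1 with the higher floor, and Lpar4 after centring. The bound of S1pr3 was 1.37 for values as deposited, 1.495 after median centring, 1.29 after removal of a lowess trend (fraction 0.3) and 1.17 without suffixed probe sets, settings in which probe set 1437173_at stood for it. Its bound was 5.95 with the floor at the 25th percentile, 1.45 at the 75th and 2.55 as the median over probe sets. A floor at the 75th percentile (signal 127) gave 0.59 for S1pr2, 1.68 for Lpar1 and 0.83 for Sphk1, left 2 members higher and 1 lower, gave no value for Lpar4 and Sphk2, and gave 944 higher and 904 lower genes among the 7773 that reached it. By construction a higher floor admits fewer genes and also shrinks bounds. At the 25th percentile, 2755 genes were lower in all. The median over probe sets was 2.01 for S1pr2, 2.85 for Lpar1, 2.12 for Sphk1 and -1.63 for Sphk2. Without suffixed probe sets, Sphk1 was at 1.09 and Sphk2 at -1.08. Low signal over background limits S1pr2, S1pr3, Lpar1, Sphk1, Sphk2 and the dimmer Lpar4 probe sets, which lay near or below the floor on at least 1 array.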

Other observations

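Genes with signals nearest to those of the called members, measured as distance in the plane of both log2 signals over these 2 arrays, were found for those above the floor on both arrays. For S1pr1 they were 2310061I04Rik (160 and 673) and Nolc1 (168 and 633). S1pr2 and S1pr3, under the floor on 1 array, are left out, since signals there have no order. Lpar1 was nearest to Fgfr2 (381 and 31.4) and Zic5 (394 and 37.1), Sphk1 to Bcl3 (209.7 and 25.8) and Sertad4 (232 and 27.7), and Sphk2 to Arhgap27 (24.999 and 112) and Smr2 (25.3 and 112). The first value of each pair is the Smad4-siRNA-labelled array. With 2 arrays this likeness is of level and ratio only.

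The genes beside the members on their chromosomes, by order in RefSeq and with a probe set of their own, did not share 1 direction. Over all measured genes, 16% were called higher and 15.8% lower. Among the 10 nearest neighbours of Lpar1 on chromosome 4, 4 were called higher and 0 lower, and 3 were below the floor on both arrays. Among those of Plpp3 on the same chromosome, 0 were higher and 2 lower, and 6 were below the floor on both. The 10 neighbours of S1pr1, which include Vcam1, had 3 higher and 3 lower, with 2 below the floor on both arrays. Those of S1pr2, which include Icam1, had 2 and 2, with 1 below the floor on both. Of the 10 neighbours of X-linked Lpar4, 1 was higher, 1 was lower, 1 lay between and 7 were below the floor on both arrays, P2ry10 and Gpr174 among them.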
